A study of Homo sapiens with 6 samples.

Results

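The zinc finger cluster of 19p12 lies beside the centromere of human chromosome 19 and holds KRAB zinc finger genes, ZNF91 and ZNF626 among them, that multiplied during primate evolution. Its members here are the H3K9me3 peaks with their midpoint in a window of 4.6 Mb of chromosome 19 (hg38), in which the outermost control peaks start at 19702032 and end at 24295628. They number 115 of 14715 peaks in BJ cells with PURPL guide 1, 41 of 12190 with PURPL guide 2 and 188 of 23653 with the control guide, so 344 of 50558 in all.

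H3K9me3, trimethylated lysine 9 of histone H3, marks silenced chromatin, and chromatin immunoprecipitation with sequencing (ChIP-seq) maps it. The 3 lines were made from BJ, an established human skin fibroblast line, and each of them carries CRISPR interference, a system that silences a gene by directing a repressor to it with a guide RNA. A line has either of 2 guides aimed at PURPL, which encodes a long non-coding RNA, or a control guide. Each line gave 1 H3K9me3 library and 1 input library, and both guides are set against the same control library, so no difference below has a replicate check and none was tested. The repressor used, the number of clones behind each line, the PURPL level and the read depth are not stated in the sources, and peak lists cannot show fibroblast markers.

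KRAB zinc finger proteins bind DNA through arrays of C2H2 zinc fingers, and their KRAB domain recruits the corepressor TRIM28 and the H3K9 methyltransferase SETDB1. Many of them silence retrotransposons. The genes of this family are themselves covered by H3K9me3 in many human cell types, mostly over the exon near the 3′ end that encodes the fingers.

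Of 194 annotated genes in the window, 36 are protein-coding zinc finger genes, 2 are other protein-coding genes, 48 are long non-coding RNA genes, 107 are pseudogenes and 1 is a microRNA gene. RefSeq promoters, from 250 bases before to 50 after a start site, were available for 28 of the 36 zinc finger genes (29 promoters). The 250 bases before the start are shown for 3 genes with long peak coverage (ZNF91, ZNF626 and ZNF737) and 2 with none (ZNF85 and ZNF681), because none of the 29 promoters lay under a peak in any list. They are printed 5′ to 3′ on the strand of the gene. Capitals mark CTGTCACTCAGG, which no other run of 12 bases exceeds in the number of these genes whose promoter holds it.
ZNF91 (chr19:23395472-23395721, GRCh38.p14, minus strand): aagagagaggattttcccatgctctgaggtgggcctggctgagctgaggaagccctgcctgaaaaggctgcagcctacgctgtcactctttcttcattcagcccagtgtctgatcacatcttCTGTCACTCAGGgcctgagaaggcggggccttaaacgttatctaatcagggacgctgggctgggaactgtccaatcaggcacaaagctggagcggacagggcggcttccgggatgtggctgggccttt
ZNF626 (chr19:20661572-20661821, GRCh38.p14, minus strand): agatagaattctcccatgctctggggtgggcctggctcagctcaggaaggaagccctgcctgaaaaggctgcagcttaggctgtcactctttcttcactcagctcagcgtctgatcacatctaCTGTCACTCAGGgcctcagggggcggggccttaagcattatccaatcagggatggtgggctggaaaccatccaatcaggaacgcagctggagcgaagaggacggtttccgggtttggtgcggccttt
ZNF737 (chr19:20565782-20566031, GRCh38.p14, minus strand): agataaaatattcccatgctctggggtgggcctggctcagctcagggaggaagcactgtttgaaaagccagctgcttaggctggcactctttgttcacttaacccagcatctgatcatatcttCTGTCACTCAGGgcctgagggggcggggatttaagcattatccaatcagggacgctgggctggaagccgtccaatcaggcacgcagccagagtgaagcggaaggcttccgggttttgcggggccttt
ZNF85 (chr19:20923001-20923250, GRCh38.p14, plus strand): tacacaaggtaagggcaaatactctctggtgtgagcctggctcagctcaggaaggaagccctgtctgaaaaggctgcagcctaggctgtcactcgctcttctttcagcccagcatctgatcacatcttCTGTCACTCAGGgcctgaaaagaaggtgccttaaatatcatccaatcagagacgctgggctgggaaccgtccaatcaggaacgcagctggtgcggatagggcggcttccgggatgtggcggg
ZNF681 (chr19:23758892-23759141, GRCh38.p14, minus strand): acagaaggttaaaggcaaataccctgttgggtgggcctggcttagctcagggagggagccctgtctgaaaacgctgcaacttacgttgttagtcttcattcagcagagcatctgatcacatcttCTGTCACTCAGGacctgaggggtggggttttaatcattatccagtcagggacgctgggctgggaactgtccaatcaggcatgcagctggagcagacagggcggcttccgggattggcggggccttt

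Most of the 28 promoters were similar to each other. Aligned over 250 bases, ZNF91 and ZNF626 shared 212 identical bases (84.8%), and the closest to ZNF91 was ZNF208 with 220. Over the 378 pairs of the 28 genes identity ranged from 49.2% to 92.0%, with a median of 79.2%. ZNF14 and ZNF682 stood apart, since the 53 pairs with either of them reached at most 56.8%. The capitalised run was searched on both strands. It stood in 18 of the 28 promoters, on the strand of the gene in all 18, in 10 of 377 promoters of other zinc finger genes (2.65%), and in 0.129% of 27195 promoters in all, with 1 promoter per gene. It was chosen because it was common in the 28, so its count there is a description. The letters CCAAT, a common promoter box, stood on either strand in 28 of 28, against 42.7% of the other zinc finger genes and 33.0% of all promoters. Part of these come from another widely held run, GTCCAATCAGGC, found in 18 of the 28, which contains CCAAT. The letters TATAAA, searched on both strands, stood in 3 of 28 (10.7%), against 2.65% of the other zinc finger genes and 11.1% of all promoters. CpG sites, counted as CG in the 250 bases, had a median of 8 per promoter (3 to 13), against 16 over all protein-coding promoters.

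H3K9me3 peaks in the cluster were fewer and narrower with each of the PURPL guides than in the control. The 115 peaks of guide 1 covered 149 kb (3.245% of the window) and the 41 peaks of guide 2 covered 36.7 kb (0.799%), against 408 kb (8.88%) under the 188 control peaks. Guide 1 thus had 61.2% of the control number and 36.5% of the control length, and guide 2 had 21.8% and 8.99%. In the whole lists guide 1 had 62.2% of the control number and 52.7% of its length, and guide 2 had 51.5% and 40.4%. The cluster held 0.839% of the covered length of guide 1 and 0.269% of that of guide 2, against 1.21% in the control.

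**Figure D1:**
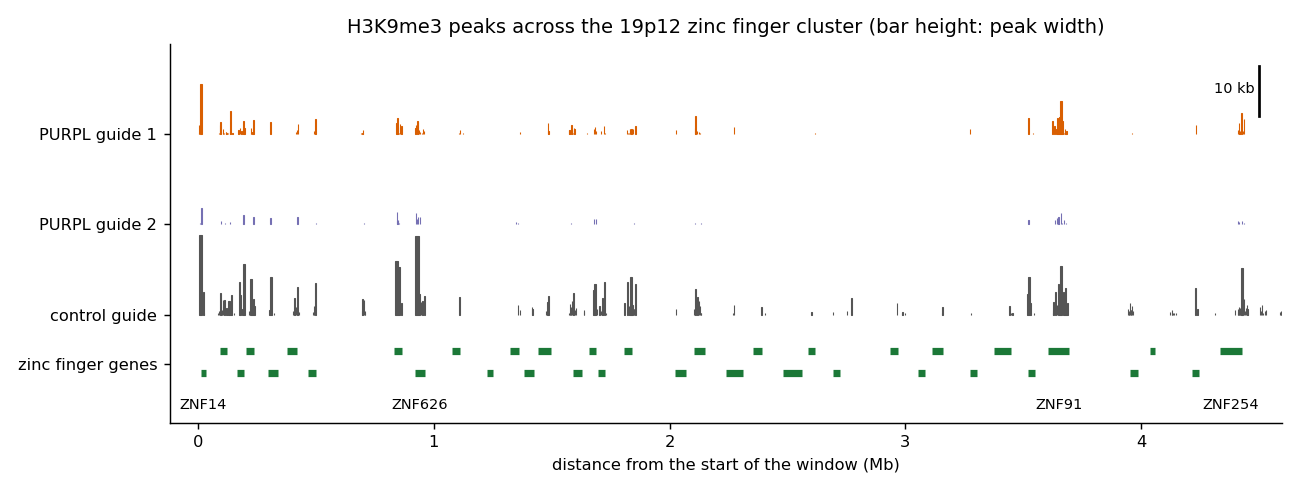
Peaks of the 3 lists along the 19p12 window, with the distance from its start in Mb on the x axis, 1 row per list, and bars whose height is the peak width (scale bar 10 kb). Green bars are the 36 zinc finger genes. Guide 1 has 115 bars, guide 2 has 41 and the control 188, and the tallest bars of the control stand over ZNF14 and ZNF626.

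The number of peaks depends on how many peaks are taken from each list. With the 12190 highest-scoring peaks of each list, guide 1 had 94 peaks in the cluster and the control 74, so the number was then 127% of the control and the direction turned. Guide 2, whose whole list numbers 12190, kept all 41 peaks, so its shares of the control changed through the control alone. The covered length was still shorter with both guides, at 55.0% of the control with guide 1 and 15.0% with guide 2. Peaks scoring 22 or more, the pooled median, left 28.02% of the control length with guide 1 and 4.34% with guide 2.

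The narrowest peaks were alike in the 3 lists, at 219 bp with guide 1 and 222 bp with guide 2, against 228 bp in the control, and the lists differed further up. The median peak was 916 bp with guide 1 and 690 bp with guide 2, against 1194 bp in the control. Peaks of at least 5000 bp numbered 2 with guide 1 and 0 with guide 2, against 22 in the control. In the whole lists such peaks were also fewer, at 328 with guide 1 and 195 with guide 2, against 966 in the control. The whole-list medians were 810 and 782.5 bp, against 859 bp. Within the cluster, the widest peak of each list lay at ZNF14. It ran from 19706216 to 19716207 with guide 1 (9992 bp), from 19711287 to 19714562 with guide 2 (3276 bp) and from 19702032 to 19717831 in the control (15800 bp), each nested in the next wider one. Scores in the cluster, which are the authors' own and are read within a list, ranged from 11 to 42 with guide 1, 13 to 29 with guide 2 and 11 to 47 in the control. The median score was 19 with guide 1, 18 with guide 2 and 19 in the control, below the whole-list medians of 22, 22 and 21.

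**Figure D2:**
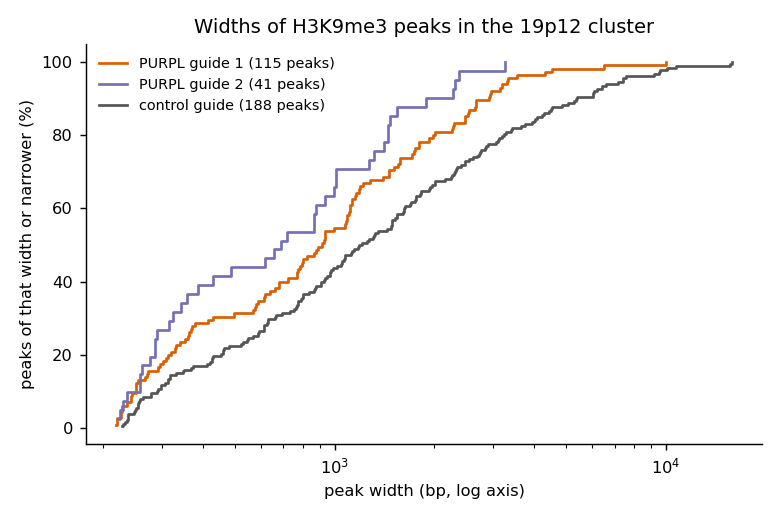
Share of the peaks in the cluster that are of a given width or narrower, against peak width in bp on a log axis, for guide 1 (115 peaks), guide 2 (41) and the control (188). The guide 2 curve lies leftmost over most of its range and ends at 3276 bp, while the control curve ends at 15800 bp.

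Control peaks lay close to both edges of the window, on either side of each. The last control peak before the outer edge was 2863 bp wide, with its midpoint 2.27 kb from that edge. The first one inside was that of 15800 bp. With guide 1 these peaks were 2161 and 1795 bp wide, and with guide 2 they were 1723 and 316 bp. At the inner edge the control peaks just inside and outside were 427 and 1497 bp wide, with midpoints 4.59 and 2.36 kb from it. The nearest guide peaks inside had their midpoint about 164 kb from that edge, with widths of 2942 bp for guide 1 and 344 bp for guide 2. Outside, the nearest peaks measured 457 bp with guide 1, with the midpoint at 35.9 kb, and 503 bp with guide 2, with the midpoint at 266 kb.

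Of the 188 control peaks, 68 overlapped a guide 1 peak (36.2%, exact 95% interval 29.3 to 43.5) and 31 a guide 2 peak (16.5%, 11.5 to 22.6). With equal numbers of top-scoring peaks these shares were 52.7% and 28.4%. The other 120 (63.8%) had no guide 1 peak, against 57.2% of the control peaks on chromosomes 1 to 22 and X. No guide 2 peak met 157 (83.5%), against 63.8% on those chromosomes. The overlap went with width. Of the 22 control peaks of at least 5000 bp, 22 overlapped guide 1 and 14 guide 2. Of the 84 from 1000 to under 5000 bp, 37 overlapped guide 1 and 15 guide 2. Of the 82 under 1000 bp, 9 overlapped guide 1 and 2 overlapped guide 2. A wide peak offers more bases to be overlapped. With cover of 50% or more of a control peak required, 11.7% met guide 1 and 1.06% met guide 2.

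Most guide peaks overlapped a control peak by at least 1 base. By bases, 75.7% of the guide 1 length and 90.7% of the guide 2 length lay under control peaks. The shared bases made up 27.7% of the control length with guide 1 and 8.16% with guide 2. With guide 1, 23 of 115 peaks met no control peak (20.0%, exact interval 13.12 to 28.5), against 20.8% over chromosomes 1 to 22 and X. With guide 2, 2 of 41 met none (4.88%, 0.596 to 16.5), against 17.1%. These shares were 41.5% and 29.3% with equal numbers of top-scoring peaks, where the control keeps 74 peaks. The 23 guide 1 peaks had a median width of 368 bp, and 19 lay within 5000 bp of a control peak. The widest was 1707 bp, at 23332305 to 23334011 in ZNF91. The 2 guide 2 peaks lay at 21047280 to 21047708 in ZNF430 and at 23352918 to 23353153 in ZNF91. The one in ZNF91 also lay under a guide 1 peak, which itself reached a control peak. Between the guides, 26 of 115 guide 1 peaks met one of guide 2 (22.6%, against 55% over those chromosomes), and 27 of 41 guide 2 peaks met one of guide 1 (65.9%, against 68.6%). The first share is limited by the 41 guide 2 peaks beside 115 of guide 1, where the whole lists hold 12190 and 14715.

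Inside the wide control peaks the guide lists had narrower pieces. Over the 22 control peaks of at least 5000 bp, guide 1 peaks covered a median of 39.7% of the width (13.5% to 76.7%) and guide 2 peaks a median of 9.27% (0% to 30.3%). Guide 1 had 2 to 5 pieces under 15 of the 22 and a single piece under 7. Guide 2 had 2 or 3 pieces under 7, a single piece under 7 and none under 8. The central 50% of these peaks was covered to 56.1% of its bases with guide 1 and the outer 50% to 34.6%. With guide 2 the values were 18.7% and 9.27%. The control list chose these peaks and set their centres and edges, so the narrower pieces and higher central cover are a description. The control score was highest at the peak from 23357082 to 23366708 in ZNF91 (score 47, above 87.5% of the control list), of which 69.6% lay under guide 1 and 27% under guide 2. The next in score with a peak in all 3 lists were at ZNF737 (20536818 to 20547519, score 35) and at ZNF254 (24124685 to 24133882, score 32). At ZNF737 52.1% lay under guide 1 and 28.7% under guide 2, and at ZNF254 54.7% and 7.12%. The highest-scoring control peaks with no guide peak were narrow. They lay in the pseudogene ZNF826P (20407394 to 20407647, 254 bp), in ZNF429 (21531191 to 21531489, 299 bp) and in ZNF14 (19726005 to 19726240, 236 bp), with scores of 33, 33 and 31.

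**Figure D3:**
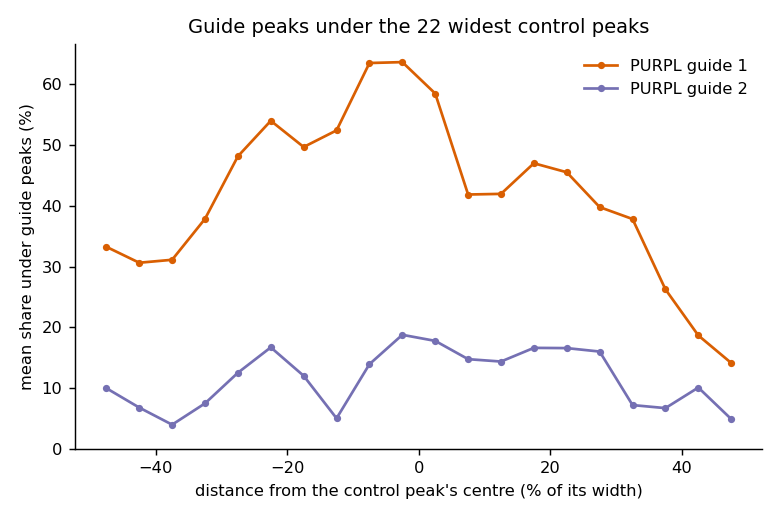
Mean share of bases under guide peaks across the 22 control peaks of at least 5000 bp, against the distance from the control peak's centre in percent of its width, in steps of 5%. The guide 1 line lies above the guide 2 line at each step, and both are higher at the centre than in the outermost step on either side. The guide 2 line is uneven in between, with 5.01% at -12.5, 18.8% at -2.5 and 16.0% at 27.5. The control list chose the peaks and set their centres and edges.

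Most of the covered length lay in the zinc finger genes. They take 32.6% of the window and held 118 kb of guide 1 coverage and 33.9 kb of guide 2 coverage, against 304 kb in the control. These are 79.1%, 92.3% and 74.5% of the length under peaks in each list. Sequence outside annotated genes, 45.5% of the window, held 23.8 kb with guide 1 and 2.34 kb with guide 2, against 71.6 kb in the control. Relative to the control, the zinc finger genes had 38.8% of their covered length with guide 1 and 11.1% with guide 2. Other annotated genes had 23% and 1.48%, and sequence outside genes 33.2% and 3.27%. Summed over all 2610 control-marked coding genes of chromosomes 1 to 22 and X, the length left was 34.3% and 13.09%. The zinc finger genes of the cluster thus lay near coding genes in general, higher with guide 1 and lower with guide 2.

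Of the 36 zinc finger genes, 25 were marked, with at least 1 base under a peak, with guide 1 and 15 with guide 2, against 32 in the control. The unmarked ones were 11 with guide 1 and 21 with guide 2, against 4 in the control, where 93.5%, 96.3% and 86.9% of all 19974 protein-coding genes had no peak. The order for guide 1 turned with equal numbers of top-scoring peaks, where 22 genes were marked with guide 1 and 15 with guide 2, against 21 in the control. Of the 32 genes marked in the control, 25 (78.1%) had at most 50% of their control coverage with guide 1, against 81.7% of all control-marked protein-coding genes, and 32 did with guide 2, against 93.8%. No guide 1 peak lay in 7 of the 32 (21.9%, against 58.9% of all) and no guide 2 peak in 17 (53.1%, against 76.9%). The share left per gene, its covered length as a percentage of the control, had a median of 34.1% with guide 1 and 0% with guide 2. Over all 2610 control-marked coding genes both medians were 0%. Most of those genes have short coverage. Among the 297 coding genes with at least 5000 control bases the medians were 39.2% and 9.62%, and among the 20 of the cluster 36.8% and 8.48%.

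**Figure D4:**
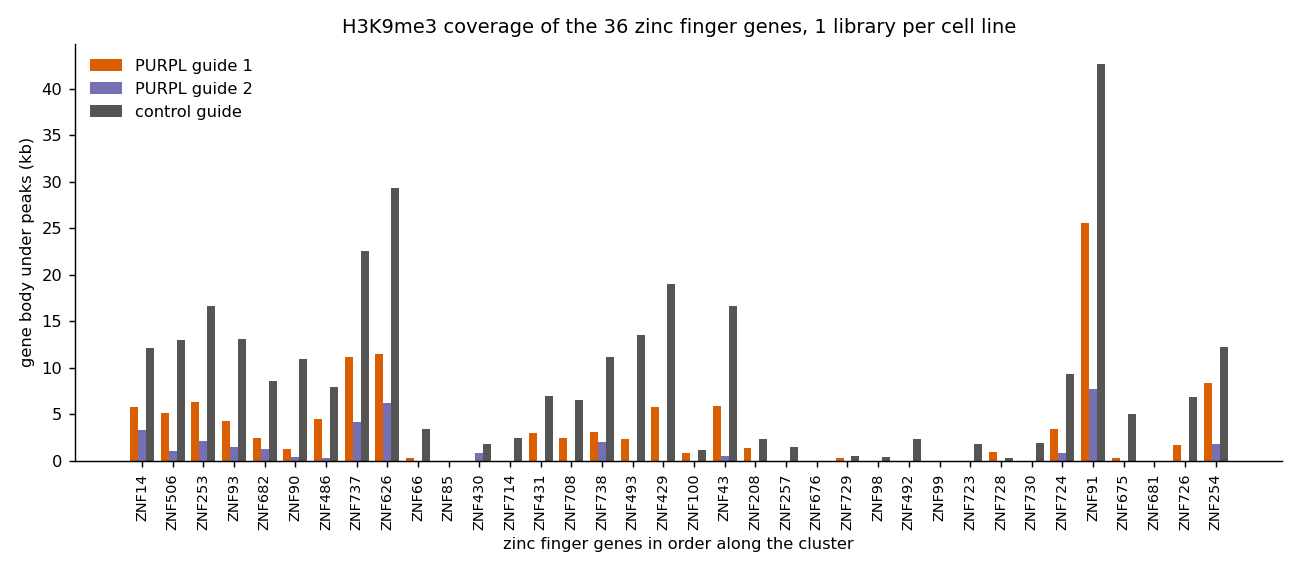
Length of each gene body under peaks in kb for the 36 zinc finger genes in order along the cluster, with bars for guide 1, guide 2 and the control, 1 library each. ZNF91 has the tallest bars of each list (25.6, 7.73 and 42.7 kb), and ZNF85, ZNF676, ZNF99 and ZNF681 have none.

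ZNF91 (gene ID 7644, 23305004 to 23395471, minus strand), whose protein represses SVA retrotransposons, had 13 peaks with guide 1 and 8 with guide 2, against 14 in the control. They covered 28.3% and 8.54% of its body, against 47.2% in the control. Their length was thus 59.9% and 18.1% of the control length, and part of it lay outside control peaks. Among peaks scoring 22 or more these shares were 44.7% and 0%, and with equal numbers of top-scoring peaks 69.8% and 22.2%. The peak number with guide 1 was close to that of the control while the median width was 1454 bp with guide 1 and 900 bp with guide 2, against 2135 bp. Which part of its annotated body holds the exon that encodes the fingers was not looked at. The coverage of ZNF91 was longest in the second part in guide 1 and the control. Cut into 4 equal parts from 5′ to 3′, it had 2197, 13345, 7471 and 2547 covered bases with guide 1, 1227, 3242, 3259 and 0 with guide 2, and 10349, 17809, 13306 and 1197 in the control. Its neighbour ZNF724 had 3377 bases with guide 1 and 863 with guide 2, against 9364 in the control. ZNF675, on the other side, whose protein binds the signalling adaptor TRAF6, had 331 and 0 bases, against 5041.

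ZNF626 (gene ID 199777, 20619939 to 20661571, minus strand) had 27.6% of its body covered with guide 1 and 14.8% with guide 2, against 70.4% in the control, the largest control share among the 36 genes. It had 9 peaks with guide 1, at most 2655 bp wide, and 4 with guide 2, at most 2311 bp, against 6 in the control, the widest of which spanned 15589 bp. Guide 1 thus had more peaks over a shorter length. From 5′ to 3′ its 4 parts held 1704, 584, 3528 and 5674 bases with guide 1, 0, 207, 2649 and 3322 with guide 2, and 5133, 6190, 9047 and 8957 in the control. The neighbour ZNF737 had 7 peaks with guide 1 and 4 with guide 2, against 3 in the control, and 11147 and 4174 covered bases, against 22578. The long non-coding gene LOC105372316 spans ZNF737 and had the same covered bases. ZNF66, on the other side of ZNF626, had 320 bases with guide 1 and 0 with guide 2, against 3429.

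ZNF429, ZNF43 and ZNF253 completed the 6 genes with the longest control coverage. ZNF429 had 5745 bases with guide 1 and 0 with guide 2, against 18961 in the control. ZNF43 had 5900 and 545 bases, against 16652. With equal numbers of top-scoring peaks its coverage with guide 1 was 100.2% of the control, which then kept 5050 bases there. ZNF253 had 6304 and 2165 bases, against 16612. Compared per length, these 3 genes had 54.1%, 35.3% and 57.6% of their body under control peaks.

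Ranked by the lower of both guides, the 5 genes with the largest share left were ZNF14 (47.5% with guide 1 and 27.1% with guide 2), ZNF626 (39.2% and 21.1%), ZNF737 (49.4% and 18.5%), ZNF91 (59.9% and 18.1%) and ZNF738 (28.1% and 17.9%). This order did not hold among peaks scoring 22 or more, where ZNF14 had 0% and 0%, ZNF626 17.7% and 0%, and ZNF91 0% with guide 2. The 5 with the least left had 0 bases with guide 2. They were ZNF675 (6.57% left with guide 1), ZNF493 (17.6%), ZNF726 (25.2%), ZNF429 (30.3%) and ZNF708 (37.5%). With equal numbers of top-scoring peaks, and also among those scoring 22 or more, ZNF493 had 77.2% and ZNF675 33.3% with guide 1, so the order with guide 1 depends on the peaks taken. In both settings the control kept 2038 bases in ZNF493 and 993 in ZNF675. These ranks rest on 20 genes with at least 5000 control bases. All 20 were marked with guide 1 and 14 with guide 2, and the shares ranged from 6.57% to 68.6% and from 0% to 27.1%.

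ZNF728 was the exception to the shorter coverage with guide 1. It had 935 bases with guide 1 and 0 with guide 2, against 318 in the control, each from a single peak. Of all control-marked coding genes 5.63% were longer with guide 1 and 1.99% with guide 2, and no zinc finger gene of the cluster was longer with guide 2. ZNF430, named after its values were seen, was the sole zinc finger gene of the cluster with more coverage in guide 2 than in guide 1, at 0 bases with guide 1 and 787 with guide 2, against 1824 in the control. ZNF85, ZNF676, ZNF99 and ZNF681 had no peak in any of the 3 lists. ZNF85 and ZNF681 carry the shared promoter run shown above, as do the heavily covered ZNF91, ZNF626 and ZNF737, and both of these unmarked genes lay far from marked sequence. The nearest peak to the start of ZNF85 lay 99.0 kb away with guide 1 and 124 kb away with guide 2, against 114 kb in the control.

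Coverage was greater towards the 3′ end of the genes in all 3 lists. Strand was known for 28 zinc finger genes, which were cut into 4 equal parts between their annotated limits. In ZNF43, ZNF254, ZNF723 and ZNF730 the 5′ limit lies before the start site used for promoters. In ZNF254 it is 24033449, against a start site at 24087187, so part 1 there lies before that site. From 5′ to 3′, 2.08%, 6.28%, 8.62% and 16.8% of the bases lay under guide 1 peaks, and 0.406%, 1.59%, 3.54% and 3.96% under guide 2 peaks, against 7.63%, 14.6%, 27.7% and 36.7% under control peaks. The last part held the longest coverage in 14 of 20 genes marked with guide 1 and in 8 of 12 marked with guide 2, against 19 of 26 in the control. Part 1 held the longest coverage of no gene in any list. The covered length was 27.3%, 42.9%, 31.1% and 45.8% of the control with guide 1. With guide 2 it was 5.32%, 10.9%, 12.77% and 10.8%. Both were lowest in part 1, but that value rests on few genes. Part 1 had peaks in 3 genes with guide 1 and in 1, ZNF91, with guide 2, against 6 in the control.

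**Figure D5:**
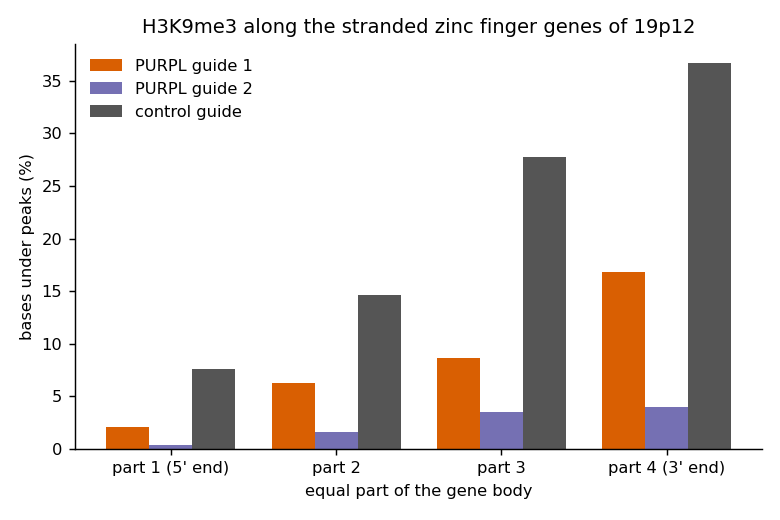
Share of bases under peaks in 4 equal parts of the gene body, from the 5′ end to the 3′ end, summed over the 28 zinc finger genes with known strand, for guide 1, guide 2 and the control. In each list the share is smallest in part 1 and largest in part 4, where it is 16.8%, 3.96% and 36.7%.

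The start sites themselves were free of peaks. None of the 29 promoters of 300 bases was touched by a peak of guide 1, guide 2 or the control. The background is low too, since 0.0813%, 0.0452% and 0.127% of all 22132 protein-coding promoters lay under a peak. A count of 0 of 29 is therefore near what the background gives. The distance from a start site to the nearest peak ran from 1.94 to 318 kb with guide 1 (median 25.6) and from 1.32 to 588 kb with guide 2 (median 41.0), against 1.04 to 114 kb in the control (median 16.8). The start of ZNF626 lay 1.94 kb from the nearest guide 1 peak and 20.6 kb from the nearest guide 2 peak, against 1.51 kb in the control. For ZNF91 the distances were 11.4 and 11.9 kb, against 7.30 kb.

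The marked genes did not fill the cluster evenly. In the outer stretch, up to 20.7 Mb, with ZNF14, ZNF737, ZNF626 and 6 more zinc finger genes, 7.12% of the sequence lay under guide 1 peaks and 2.23% under guide 2 peaks, against 17.9% in the control. All 9 genes were marked in each list. From 20.7 to 22.1 Mb the shares were 2.41% and 0.27%, against 7.80%, with 9 and 3 of 13 genes marked, against 12. From 22.1 to 23.1 Mb, where 8 zinc finger genes start, they were 0.121% and 0%, against 1.07%, with 2 and 0 genes marked, against 6. From 23.1 Mb to the inner edge, with ZNF91 and ZNF254, they were 3.59% and 0.891%, against 9.16%, with 5 and 3 of 6 genes marked, against 5. These stretches were drawn after the values were seen, and genes were assigned to them by their lower coordinate. ZNF730, counted below 23.1 Mb, has its control peaks above it, at 23141412 to 23143108 and 23146285 to 23146514. Guide 2 had no peak between 21834863 and 23222350, a gap of 1387 kb that holds 10 whole zinc finger genes. The widest gap was 659 kb with guide 1, and 257 kb in the control.

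Of 23 bins of 200 kb, guide 1 had peaks in 19 and guide 2 in 13, against 23 in the control. Guide 1 covered more than the control in 1 bin, the one with ZNF728, and guide 2 in none. The 5 bins with the longest control coverage held 67.5% of the guide 1 length and 75.0% of the guide 2 length, against 55.4% of the control length. Control coverage chose these bins, so the control share is high by construction and the guide shares are a description.

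Other zinc finger clusters of chromosome 19 are given beside it without a test, since each value rests on 1 library. The 19p12 cluster had 36.5% of the control length with guide 1 and 8.99% with guide 2. The cluster of 19p13.2 had 48.2% and 23.2%, that of 19q13.1 49.9% and 20.0%, and that of distal 19q13 46.8% and 15.7%. In number of peaks 19p12 had 61.2% and 21.8%, against 74.0% and 60.3% at 19p13.2, 95.3% and 57.0% at 19q13.1, and 91.0% and 61.4% at distal 19q13. The share of sequence under control peaks was 8.88% at 19p12, 10.4% at 19p13.2, 16.4% at 19q13.1 and 12.3% at distal 19q13. With equal numbers of top-scoring peaks, an alternative added for the other clusters after seeing the data, the length left with guide 1 was 55.0% at 19p12, 60.1% at 19p13.2, 54.5% at 19q13.1 and 52.0% at distal 19q13. With guide 2 it was 15.0%, 31.0%, 25.5% and 19.3%. The number left with guide 1 was then 127%, 125%, 162.5% and 151%, and with guide 2 it was 55.4%, 128%, 125% and 131%. The values of 19p12 were thus the lowest of the 4 in both settings with guide 2, but for guide 1 in the full lists alone. Its zinc finger promoters also had fewer CpG sites, with a median of 8, against 13, 19 and 18.

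Genes of one family share long similar stretches, and the handling of reads that fit several copies is not stated in the sources. How far such reads set the peaks of single genes was not tested.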

How the data were processed

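H3K9me3 chromatin immunoprecipitation was compared between 3 BJ cell lines with 1 H3K9me3 library and 1 input library each. Peaks of each line were called against its own input and deposited as 1 list per line, per the file headers and peak names. Per the submitters' processing notes, MACS2 2.2.9.1 was among the tools, beside Bowtie2 2.4.2, deepTools 3.5.1 and GATK, and the builds were GRCh38.p13 and hg38. Peak-calling settings, read numbers and the handling of reads that fit several places are not stated in the sources. Each peak's score is the authors' deposited value on an unstated scale, and it was used to rank peaks within a list and to filter lists in the alternatives. The peak names carry guide names that differ from the labels (sg4 and sg5), so each list was assigned by the name of the whole list, which matches the sample title.

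Peaks were taken by midpoint at 19.7 to 24.3 Mb of chromosome 19. Gene bodies and promoter sequences came from RefSeq tables for GRCh38.p14, whose chromosome coordinates equal those of GRCh38.p13. Overlap meant at least 1 bp, and a gene was marked when 1 base of its body lay under a peak. A gene counted as reduced when its covered length was at most 50% of the control length. A share or length left is the guide's covered length as a percentage of the control length, wherever the guide's peaks lie. Intervals are exact 95% Clopper-Pearson intervals and cover counting error only. They treat peaks as independent and may be too narrow, since the 188 control peaks form 56 when those within 5000 bp are merged. With 1 library per line no test was possible and no p-value is given, and the sequencing depth is unknown. The members and lists were chosen with earlier results of these data known. Named genes are ZNF91 and ZNF626 with their neighbours, the 6 genes with the longest control coverage, the 5 with the largest and the 5 with the smallest share left (by the lower of both guides, with at least 5000 control bases), those with no peak and those longer with a guide. The rule also takes the 3 genes of each other class with the longest control coverage, the 3 widest peaks of each list and, among control peaks, the 3 of highest score that both guides met and the 3 that neither met. Names outside this rule were chosen after their values were seen. Alternatives changed the score limit, the number of peaks per list, the overlap, the merging of peaks, the gene limits and the window. Overlap, coverage and merging were tested on simulated peaks. Software was pandas 2.3.3, numpy 2.4.6, scipy 1.17.1, matplotlib 3.10.9 and Biopython 1.88 under Python 3.11.15.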

Additional observations from a re-analysis of the deposited data

How the results depend on the processing

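No paired analysis was possible because each cell line has 1 H3K9me3 library. No replicate could be left out for the same reason. With equal numbers of top-scoring peaks (12190 per list), the length left was 55.0% with guide 1 and 15.0% with guide 2, and the peak number left was 127% (the direction turned) and 55.4%. Control peaks overlapped were then 52.7% and 28.4%, and guide peaks without a control peak 41.5% and 29.3%. Marked zinc finger genes were 22 with guide 1 and 15 with guide 2, against 21 in the control (main: 25 and 15, against 32). At or under 50% of the control coverage were 12 and 21 genes. ZNF43 with guide 1 was at 100.2% of the 5050 bases that the control kept there. At or above the pooled median score of 22, the length left was 28.02% and 4.34%, the number left with guide 2 14.3%, control peaks overlapped by guide 2 11.1%, and guide peaks without a control peak 40.0% and 22.2%. Marked genes were then 7 with guide 2 and 20 in the control, with 13 and 20 at or under 50%. Fewer peaks enter both settings, except for guide 2 with equal numbers, where its whole list is kept. In the other clusters equal numbers turned the peak number left to 125% and 128% at 19p13.2, 162.5% and 125% at 19q13.1, and 151% and 131% at distal 19q13. With peaks within 5000 bp merged, the length left was 42.7% and 9.77% and the number left with guide 2 53.6%. With 50% of a peak covered, control peaks overlapped were 11.7% and 1.06%, and guide 1 peaks without a control peak 35.7%. The window ending at 24 Mb gave a length left of 9.22% with guide 2. Clipping peaks at the window edges gave the same covered lengths, and adding 2000 bp to each gene end moved no count of genes by over 1.5 times. The depth is unknown, so how far it sets these differences was not tested.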

Other observations

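Pseudogenes make up 107 of the 194 annotated genes of the window, and most were unmarked. Of the 107, 6 (5.61%) were marked with guide 1 and 5 (4.67%) with guide 2, against 14 (13.08%) in the control. The 18 pseudogenes of vomeronasal receptors (symbols VN1R) had no peak in any list, a count that so low a share over all pseudogenes does not set apart. Of 33 pseudogenes of BNIP3, a mitophagy gene, 2 were marked with guide 1 and 1 with guide 2, against 4 in the control. BNIP3P12, the one with the longest control coverage, is an annotation of 65.5 kb that overlaps ZNF682, and it had 2482 bases with guide 1 and 1313 with guide 2, against 6628 in the control. Of 7 zinc finger pseudogenes 2 were marked with guide 1 and 2 with guide 2, against 5. ZNF56P, which spans ZNF506, had 9487 and 1005 bases, against 23405, and COX16P1 had 2845 and 225, against 7078.

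Long non-coding genes were marked in 2 of 48 cases with guide 1 and 2 with guide 2, against 5 in the control. LOC105372310, which spans ZNF486, had 4460 and 261 bases, against 9989, and LOC105376917 had 0 and 0, against 3283. The coding genes without zinc fingers in their name, RPSA2 (0 and 0 bases, against 2825) and LOC124904660 (0 and 0, against 767), had peaks in the control alone.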
